A study of Homo sapiens with 3 samples.

Results

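The BCL2 family genes BCL2, BCL2L1, MCL1, BAX, BAK1, BBC3, PMAIP1, BCL2L11, BID and BIK were followed in Cal62 cells, a line from an anaplastic thyroid carcinoma, after knockdown of ADAR1. They were picked by gene symbol and make up 10 of the 58333 genes in the expression table. The cells were transfected with siControl, a non-targeting siRNA, with siADAR1 #1 or with siADAR1 #2, the latter being siRNAs of different sequence against the same gene, and poly(A)+ RNA of 2 biological replicates per transfection was sequenced. ADAR1, encoded by ADAR, deaminates adenosine to inosine in double-stranded RNA. All 6 libraries came from this 1 cell line and all cells received an siRNA, so no untransfected cells were compared, and how long after transfection the RNA was taken is not given in the sources used here.

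Proteins of the BCL2 family decide whether the outer mitochondrial membrane of a cell under stress stays intact. BAX and BAK1 are the effectors that form the pores through which cytochrome c leaves the mitochondrion. BCL2, BCL-XL (from BCL2L1) and MCL1 bind and restrain them, and the BH3-only proteins, here PUMA (BBC3), NOXA (PMAIP1), BIM (BCL2L11), BID and BIK, occupy the groove of the restraining proteins or activate the effectors directly. Epithelial tumors often rely on BCL-XL and MCL1 for survival.

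The 10 genes are tied by 1 short element, the BH3 helix, and its core is shown because every class of the family carries it. The bases below are the coding strand of the MANE Select transcript of each gene (GENCODE release 44, GRCh38), 5′ to 3′, and the capitals mark the leucine codon and the pair of codons for glycine or alanine and aspartate. Each core lies in a coding exon.
BCL2: CTCcgccaggccGGCGAC
BCL2L1: CTGagggaggcaGGCGAC
MCL1: TTAcgacgggttGGGGAT
BAX: CTCaagcgcatcGGGGAC
BAK1: CTCgccatcatcGGGGAC
BBC3: CTGcggcggatgGCGGAC
PMAIP1: CTCaggagatttGGAGAC
BCL2L11: TTGcggcgtattGGAGAC
BID: CTCgcccaggtcGGGGAC
BIK: CTGgcctgcatcGGGGAC

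The search was made in frame on the coding strand, for a leucine codon (TTA, TTG or CTN), any 3 codons, GGN or GCN, and GAT or GAC. Each of the 10 transcripts held exactly 1 such stretch, at residues 97 to 102 in BCL2 and at residues 29 to 34 in PMAIP1, the shortest protein of the group. The same letters were found in 4789 of 19028 coding transcripts searched (25.2%), so a match by itself describes a sequence and not a BH3 domain. BBC3 was the member with the alanine codon, and the glycine form was found in 14% of all coding transcripts. The anti-apoptotic cores lie at chr18:63318361-63318378 (BCL2, minus strand), chr20:31721934-31721951 (BCL2L1, minus strand) and chr1:150578877-150578894 (MCL1, minus strand). Those of the effectors lie at chr19:48955787-48955804 (BAX, plus strand) and chr6:33575399-33575416 (BAK1, minus strand). The BH3-only cores lie at chr19:47226591-47226608 (BBC3, minus strand), chr18:59902673-59902690 (PMAIP1, plus strand), chr2:111150103-111150120 (BCL2L11, plus strand), chr22:17739427-17739444 (BID, minus strand) and chr22:43127716-43127733 (BIK, plus strand).

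The libraries held between 30114840 and 50029763 reads counted on genes. ADAR, the targeted gene, had normalized counts (reads divided by the size factor of the library) of 10906 and 11701 in the siControl libraries, 1328 and 2246 with siADAR1 #1 and 1663 and 2928 with siADAR1 #2. It fell with both siRNAs, by a log2 fold change (log2FC) of -2.71 with siADAR1 #1 (adjusted p = 0.00355, limma) and -2.35 with siADAR1 #2 (adjusted p = 0.00153). Of the thyroid lineage markers, PAX8 was abundant, NKX2-1 was at 0 reads in all 6 libraries, and TG and SLC5A5 stayed at or under 62.4 normalized counts. The summed level of the 7 thyroid markers was 14298 to 16115 in siControl, 10509 to 15226 with siADAR1 #1 and 2819 to 5705 with siADAR1 #2. Nearly all of this sum was PAX8, at 13927 and 15868, 10272 and 15074, and 2542 and 5484 normalized counts in the same order. FOXE1 was at 249 and 151, 118 and 94.2, and 96.4 and 70.3, below siControl with both siRNAs. TSHR was higher with siADAR1 #2 (95.3 and 107) than in siControl (70.8 and 73.4) and lower with siADAR1 #1 (61.7 and 41.5). The summed level of the 4 epithelial markers was 71151 to 89898 in siControl, 98864 to 103009.8 with siADAR1 #1 and 61622 to 70578 with siADAR1 #2. In this sum the siRNA groups lay on opposite sides of siControl, as they did for KRT18. KRT18 was at 48692 and 38662, 61379 and 59432, and 25217 and 23116 normalized counts in the same order. Mean KRT8 and EPCAM were above siControl with both siRNAs (110% and 113% of it for KRT8, 112% and 125% for EPCAM). CDH1 was at 210 and 39.8, 49.6 and 52.8, and 196 and 36.6 in the order used for KRT18. The summed level of the 3 mesenchymal markers was 269905 to 281768, 78846 to 131133 and 85759 to 152930 in the same order. Within it, VIM was at 105253 and 92977, 5464 and 17949, and 50998 and 66855, and CDH2 and FN1 made up the rest. The part of these marker shifts in the changes given here was not tested. The leukocyte and T cell markers PTPRC and CD3E had at most 5 reads in any library.

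Log2FC values are differences between group means on the deposited log2 scale with the standard error (SE) of the fit, n = 2 libraries per group, and a gene was called when its adjusted p was under 0.05 and its log2FC was beyond 0.5 in either direction. The siControl libraries are shared by both comparisons against siControl. Because the table holds 1 value per gene, isoforms such as the long and short forms of BCL2L1, MCL1 and BCL2L11 were not separated. In bulk RNA, fewer cells that express a gene and less of its RNA per cell cannot be told apart.

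All 10 members passed the filter on low values. With siADAR1 #1, 4 members rose (MCL1, BBC3, PMAIP1 and BIK), 1 fell (BCL2) and 5 were not called. Over the 20247 genes tested, 17.4% were called, 6.39% as higher and 11.0% as lower. The share of higher genes among those called was 36.8% with the deposited scaling (1293 higher and 2225 lower), 52.9% with median-centred libraries (1938 and 1723) and 48.0% with quantile-normalized libraries (1686 and 1827). With siADAR1 #2, 3 members rose (BAK1, BBC3 and PMAIP1), 1 fell (BID) and 6 were not called, against 27.5% of all genes called, 11.6% higher and 16.0% lower. The median log2FC of the 10 members was 0.28 with siADAR1 #1 and 0.35 with siADAR1 #2, and that of all genes tested was -0.03 and -0.02. BBC3 and PMAIP1 were called higher with each siRNA, as were 1.86% of all genes. None of the 10 was called lower with each, as 3.55% of all genes were, or in opposite directions, as 1.62% were.

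**Figure D1:**
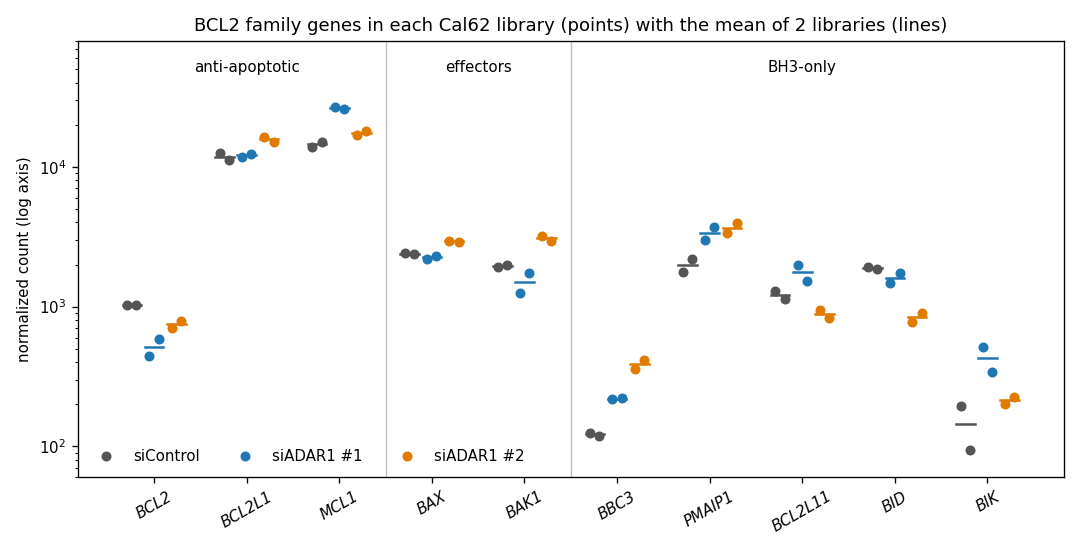
Normalized counts of the 10 BCL2 family genes (log axis) in each of the 6 libraries, as points, with short lines for the mean of the 2 libraries of a transfection. The siADAR1 #1 libraries stand above the others for MCL1, BCL2L11 and BIK, and below them for BCL2, BAX and BAK1. Those of siADAR1 #2 stand above the others for BCL2L1, BAX, BAK1 and BBC3, and below them for BCL2L11 and BID.

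The anti-apoptotic genes did not move together. MCL1 (chr1:150560895-150579738, minus strand), whose protein is short-lived and binds NOXA with high affinity, had normalized counts of 13932 and 15119 in siControl, 26912 and 26061 with siADAR1 #1 and 16957 and 17935 with siADAR1 #2. All 4 siADAR1 libraries were above both siControl libraries, and the siADAR1 #1 libraries were the highest. The rise was 1.82-fold with siADAR1 #1 (log2FC 0.87, SE 0.10, adjusted p = 0.00366, limma), and it was called under each of the 18 alternatives tried. With siADAR1 #2 the log2FC was 0.26 (95% confidence interval 0.03 to 0.50, adjusted p = 0.0837), which was not called. MCL1 shares 328 exonic bases with ADAMTSL4-AS1, which had at most 74.7 normalized counts in any library.

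BCL2 (chr18:63123346-63320128, minus strand), the founding member of the family, had normalized counts of 1021 and 1032 in siControl, 445 and 584 with siADAR1 #1 and 709 and 788 with siADAR1 #2. The groups did not overlap, with siControl the highest and siADAR1 #1 the lowest. The log2FC was -1.01 with siADAR1 #1 (SE 0.17, adjusted p = 0.0097, limma) and -0.46 with siADAR1 #2 (SE 0.17, adjusted p = 0.0845), and only the first was called. The call with siADAR1 #1 was lost when either siControl library was left out, at adjusted p = 0.0748 without replicate 1 and 0.0649 without replicate 2, with the log2FC at -1.01 and -1.0.

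BCL2L1 (chr20:31664452-31723989, minus strand) had normalized counts of 12485 and 11171 in siControl, 11840.0 and 12442 with siADAR1 #1 and 16408 and 15133 with siADAR1 #2. The siControl and siADAR1 #1 libraries overlapped, and the siADAR1 #2 libraries were above both. With siADAR1 #1 the log2FC was 0.04 with a 95% confidence interval of -0.21 to 0.29 (adjusted p = 0.838, limma). With siADAR1 #2 it was 0.42 (SE 0.11, adjusted p = 0.0236), under the fold threshold and therefore not called. BCL2L1 shares 1735 exonic bases with ABALON on the opposite strand, and the strand setting of the counting is not given in the sources used here. ABALON had normalized counts of 640.3 and 489.6 in siControl, 577 and 621 with siADAR1 #1 and 1569 and 1469 with siADAR1 #2, and its part in the BCL2L1 value was not tested.

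Of the effectors, BAK1 (chr6:33572547-33580293, minus strand), which resides in the outer mitochondrial membrane, had normalized counts of 1911 and 1988 in siControl, 1248 and 1745 with siADAR1 #1 and 3211 and 2944 with siADAR1 #2. Both siADAR1 #1 libraries were under siControl and both siADAR1 #2 libraries were above it. It rose 1.58-fold with siADAR1 #2 (log2FC 0.66, SE 0.17, adjusted p = 0.0235, limma), and this call was lost when any of the 4 libraries compared was left out. The adjusted p was then 0.121 without siControl replicate 1, 0.0912 without siControl replicate 2, 0.127 without siADAR1 #2 replicate 1 and 0.0619 without siADAR1 #2 replicate 2, and it was 0.0755 with eBayes without trend. With siADAR1 #1 the log2FC was -0.40 (adjusted p = 0.148), and it passed the test when siADAR1 #1 replicate 2 was left out (log2FC -0.64, adjusted p = 0.0275).

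BAX (chr19:48954815-48961798, plus strand), the effector that moves from the cytosol to the mitochondrion when activated, varied least among the 10, with group means that spanned 0.38 on the log2 scale. Its normalized counts were 2400.1 and 2374 in siControl, 2208 and 2285 with siADAR1 #1 and 2968 and 2879.7 with siADAR1 #2. The siADAR1 #2 libraries were the highest, at a log2FC of 0.29 (95% confidence interval 0.03 to 0.55, adjusted p = 0.0851, limma). With siADAR1 #1 the log2FC was -0.09 (95% confidence interval -0.35 to 0.17, adjusted p = 0.633), and its sign changed when the libraries were centred on their median (0.054) or quantile-normalized (0.0068). BAX was not called in either comparison.

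Among the BH3-only genes, BBC3 (chr19:47220822-47232766, minus strand), which encodes PUMA, which binds all anti-apoptotic proteins of the family, had normalized counts of 124 and 119 in siControl, 218 and 221 with siADAR1 #1 and 359 and 412 with siADAR1 #2. These values rest on 114 to 317 reads per library. The 3 groups did not overlap and siADAR1 #2 was the highest. BBC3 rose 1.79-fold with siADAR1 #1 (log2FC 0.84, SE 0.19, adjusted p = 0.0219, limma) and 3.12-fold with siADAR1 #2 (log2FC 1.64, SE 0.19, adjusted p = 0.00103). The second call was kept under each of the 18 alternatives. The first was lost whenever 1 of the 4 libraries compared was left out, at adjusted p = 0.0971 without siControl replicate 1, 0.0978 without siControl replicate 2, 0.0882 without siADAR1 #1 replicate 1 and 0.0572 without siADAR1 #1 replicate 2, with log2FC values of 0.81 to 0.87.

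PMAIP1 (chr18:59899996-59904305, plus strand), which encodes NOXA, a binder of MCL1, had normalized counts of 1754 and 2208 in siControl, 2999 and 3735 with siADAR1 #1 and 3361 and 3943 with siADAR1 #2. All 4 siADAR1 libraries were above both siControl libraries and the siRNA groups overlapped. It rose 1.70-fold with siADAR1 #1 (log2FC 0.77, SE 0.17, adjusted p = 0.0209, limma) and 1.85-fold with siADAR1 #2 (log2FC 0.89, SE 0.17, adjusted p = 0.00699). With siADAR1 #1 the call was lost without siControl replicate 1 (log2FC 0.60, adjusted p = 0.132), without siControl replicate 2 (0.93, adjusted p = 0.0524) and without siADAR1 #1 replicate 2 (0.61, adjusted p = 0.0724), and with eBayes without trend, a fit in which the spread does not depend on the level (adjusted p = 0.0819). With siADAR1 #2 it was lost without siControl replicate 1 (0.72, adjusted p = 0.059).

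BID (chr22:17734138-17774770, minus strand), which caspase-8 cleaves to carry the death receptor signal to mitochondria, had normalized counts of 1934 and 1848 in siControl, 1478 and 1737 with siADAR1 #1 and 782 and 907 with siADAR1 #2. All 4 siADAR1 libraries were below both siControl libraries, and those of siADAR1 #2 were the lowest. BID fell to 0.446 of the siControl level with siADAR1 #2 (log2FC -1.16, SE 0.15, adjusted p = 0.00135, limma), a call that held under each of the 18 alternatives. With siADAR1 #1 the log2FC was -0.24 (95% confidence interval -0.58 to 0.10, adjusted p = 0.301).

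BCL2L11 (chr2:111119378-111168444, plus strand), which encodes BIM, an activator of BAX and BAK1, was on opposite sides of siControl with the siRNAs. Its normalized counts were 1288 and 1135 in siControl, 1979 and 1534 with siADAR1 #1 and 945 and 835 with siADAR1 #2. The groups did not overlap, yet neither change was called, at a log2FC of 0.53 with siADAR1 #1 (SE 0.17, adjusted p = 0.0668, limma) and -0.44 with siADAR1 #2 (SE 0.17, adjusted p = 0.0836). When the replicate number was entered as a block, the value with siADAR1 #1 passed the test (adjusted p = 0.0276), as it did without siADAR1 #1 replicate 2 (log2FC 0.71, adjusted p = 0.0351). BCL2L11 shares 727 exonic bases with MIR4435-2HG on the opposite strand, whose normalized counts were 2302 and 1741 in siControl, 1174 and 1026 with siADAR1 #1 and 5009 and 3986 with siADAR1 #2. The order of these groups was the reverse of that of BCL2L11, and the part of MIR4435-2HG reads in the BCL2L11 value was not tested.

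BIK (chr22:43110750-43129712, plus strand), whose protein sits mainly at the endoplasmic reticulum, had the widest spread between siControl libraries. Its normalized counts were 196 and 94.9 in siControl, 516 and 340.4 with siADAR1 #1 and 201 and 227 with siADAR1 #2, from 93 to 552 reads. All 4 siADAR1 libraries were above both siControl libraries, and siADAR1 #1 was the highest. BIK rose 3.03-fold with siADAR1 #1 (log2FC 1.60, SE 0.36, adjusted p = 0.0211, limma), and the call was lost without siControl replicate 2 (log2FC 1.09, adjusted p = 0.0971) or without siADAR1 #1 replicate 1 (1.30, adjusted p = 0.122), and with eBayes without trend (adjusted p = 0.0732). With siADAR1 #2 the log2FC was 0.64 (95% confidence interval -0.19 to 1.46, adjusted p = 0.221).

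**Figure D2:**
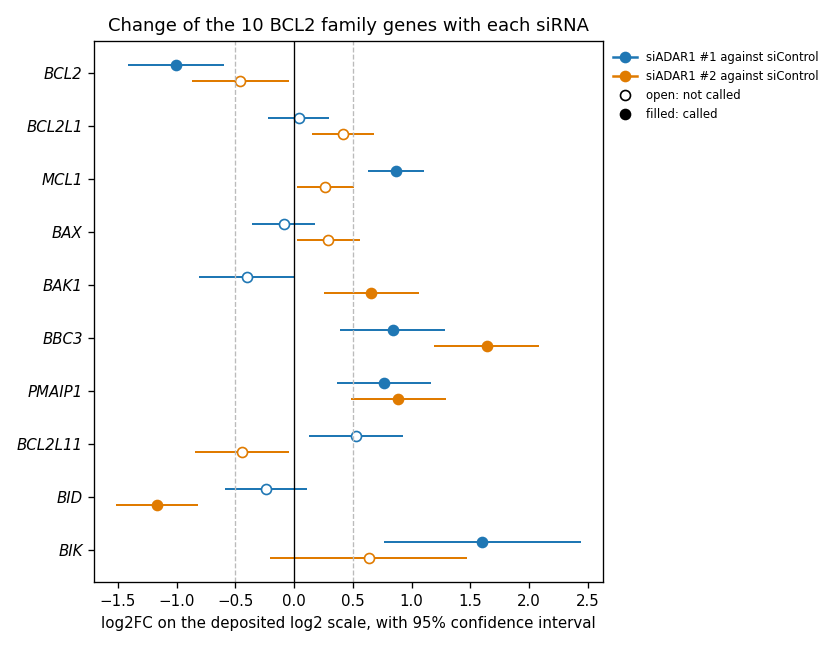
Log2FC of the 10 BCL2 family genes against siControl with siADAR1 #1 and siADAR1 #2, with 95% confidence intervals. Filled points were called (adjusted p under 0.05 and log2FC beyond 0.5, the dashed lines), 5 with siADAR1 #1 and 4 with siADAR1 #2, and BBC3 and PMAIP1 are filled for both.

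The siRNAs were then compared with each other. Of the 10 members, 3 were higher with siADAR1 #2 (BCL2, BAK1 and BBC3), 3 were lower (MCL1, BCL2L11 and BID) and 4 were not called, against 33.7% of all genes tested that were called, 17.3% higher and 16.5% lower. ADAR itself differed by 0.35 on the log2 scale (95% confidence interval -0.36 to 1.06, adjusted p = 0.406, limma). The difference of siADAR1 #2 minus siADAR1 #1 was 1.06 for BAK1 (adjusted p = 0.00269), -0.60 for MCL1 (0.003), -0.97 for BCL2L11 (0.00358) and -0.93 for BID (0.00244), and these 4 were called under each of the 18 alternatives. For BBC3 it was 0.80 (adjusted p = 0.0129), which was not called without siADAR1 #1 replicate 1 (adjusted p = 0.0502) or without siADAR1 #2 replicate 2 (0.0818). For BCL2 it was 0.55 (adjusted p = 0.04), close to the fold threshold, and the call was kept under 8 of the 18 alternatives. It was lost when any library except siADAR1 #1 replicate 2 was left out, with log2FC values of 0.35 to 0.63 and adjusted p of 0.0722 to 0.175.

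The 4 other members had differences that were not called. PMAIP1 differed by 0.12 between the siRNAs (95% confidence interval -0.27 to 0.52, adjusted p = 0.619, limma), BAX by 0.38 (adjusted p = 0.0303) and BCL2L1 by 0.38 (adjusted p = 0.0287), both of which were under the fold threshold. BIK differed by -0.97 (adjusted p = 0.0678) and passed the test with the replicate block (adjusted p = 0.0298) and without either siControl library (0.0355 without replicate 1 and 0.0343 without replicate 2).

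When the 4 siADAR1 libraries were treated as 1 group, as a single knockdown condition, 0 of the 10 members and 0% of all genes were called by limma, and 2869 genes (14.2%) had an unadjusted p under 0.05. ADAR was at a log2FC of -2.53 (adjusted p = 0.0881), the smallest adjusted p of the fit. The members with an unadjusted p under 0.05 were PMAIP1 (log2FC 0.83, adjusted p = 0.157), BBC3 (1.24, adjusted p = 0.195), BCL2 (-0.73, adjusted p = 0.293) and MCL1 (0.57, adjusted p = 0.345). In this fit the difference between the siRNAs counts as spread within the group. When both siRNA effects were averaged in the fit with 3 groups instead, 6 members (BCL2, MCL1, BBC3, PMAIP1, BID and BIK) and 3601 of all genes were called. Without a test, all 4 siADAR1 libraries were above both siControl libraries for MCL1, BBC3, PMAIP1 and BIK, as for 12.0% of all genes, and below both for BCL2 and BID, as for 17.0%.

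Levels of different genes were compared per kilobase of the MANE Select transcript. In siControl, BCL2L1 was the highest of the 10 at 4595 normalized counts per kilobase, followed by MCL1 (3677), BAX (3003), PMAIP1 (1043), BAK1 (898), BID (869), BCL2L11 (238), BIK (153), BCL2 (149) and BBC3 (65.9). The ranges of BAK1 and BID overlapped, as did those of BIK and BCL2. Neighbours whose ranges overlapped were BID with BAK1 and BIK with BCL2L11 in the siADAR1 #1 libraries, and BIK with BBC3 in those of siADAR1 #2. BCL2 was thus a minor transcript among the anti-apoptotic genes, at 1.74% and 1.80% of their summed level in the siControl libraries. With siADAR1 #1, MCL1 (6705) passed BCL2L1 (4717) to become the highest, and with siADAR1 #2, BCL2L1 (6127) stayed above MCL1 (4417). BCL2 was the lowest of the 10 with either siRNA, at 74.8 with siADAR1 #1 and 109 with siADAR1 #2.

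MCL1 made up 41.4% and 46.0% of the per-kilobase level of the 3 anti-apoptotic genes in siControl, 59.4% and 57.3% with siADAR1 #1 and 39.9% and 43.1% with siADAR1 #2. The siADAR1 #1 libraries were above all others, and the siControl and siADAR1 #2 libraries overlapped. Within the 5 BH3-only genes, PMAIP1 made up 39.5% and 48.5% in siControl, 47.8% and 55.5% with siADAR1 #1 and 65.1% and 66.6% with siADAR1 #2, and BID made up 38.0% and 35.4%, 20.5% and 22.5%, and 13.2% and 13.4% in the same order. BBC3 stayed a small part of the RNA of these 5 genes, at 2.69% to 2.88% in siControl and 7.15% to 7.16% with siADAR1 #2. Family genes outside the 10 were not counted in the class shares given here and below. Among them was the BH3-only gene BAD, at 1425 per kilobase in siControl, 594 with siADAR1 #1 and 478 with siADAR1 #2. The ratio of BAK1 to BAX was 0.292 and 0.307 in siControl, 0.207 and 0.280 with siADAR1 #1 and 0.396 and 0.375 with siADAR1 #2. No test was made on these shares, which assume that the MANE Select transcript is the one expressed.

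The 3 anti-apoptotic genes together accounted for 57.7% and 56.9% of the per-kilobase level of all 10 in siControl, 63.3% and 61.5% with siADAR1 #1 and 57.6% and 56.5% with siADAR1 #2. The effectors accounted for 26.4% and 26.7%, 18.5% and 19.6%, and 27.9% and 26.7% in the same order. The BH3-only genes accounted for 15.8% and 16.4%, 18.2% and 18.9%, and 14.5% and 16.7%. The anti-apoptotic genes came first and the effectors next in every library, and with siADAR1 #1 the effectors and the BH3-only genes were nearly level.

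**Figure D3:**
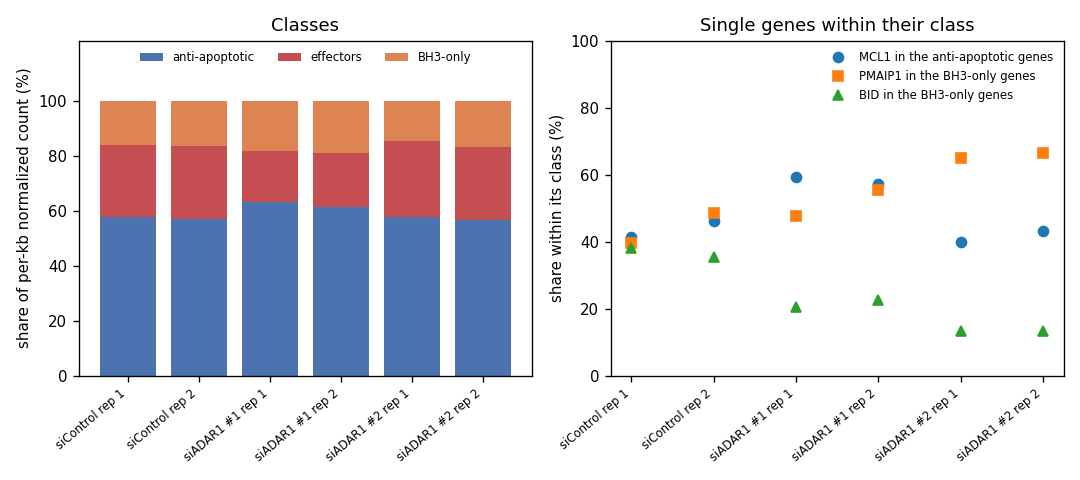
Left, share of the summed per-kilobase normalized count of the 10 genes held by the anti-apoptotic genes, the effectors and the BH3-only genes in each library. Right, share of MCL1 within the anti-apoptotic genes and of PMAIP1 and BID within the BH3-only genes, with MCL1 highest in the siADAR1 #1 libraries and PMAIP1 highest in those of siADAR1 #2.

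Of 13 further genes of the family, 12 were tested, since BCL2A1 had at most 4 reads in any library. With siADAR1 #1, 2 rose and 2 fell, and with siADAR1 #2, 1 rose and 2 fell. Of all genes tested, 17.4% were called with siADAR1 #1 and 27.5% with siADAR1 #2. The median log2FC was 0.01 and 0.13, beside -0.03 and -0.02 for all genes tested. The gene with the widest change was HRK, a BH3-only gene known from neurons, which had 30 and 10 reads in siControl, 37 and 42 with siADAR1 #1 and 242 and 160 with siADAR1 #2. The siADAR1 #2 libraries stood above all others, at a log2FC of 3.60 against siControl (adjusted p = 0.0018, limma) and of 2.50 against siADAR1 #1 (adjusted p = 0.0058), and both calls held under each of the 18 alternatives.

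BAD, a BH3-only gene whose protein is held inactive by phosphorylation, fell with both siRNAs. Its normalized counts were 1373 and 1275 in siControl, 439 and 665 with siADAR1 #1 and 371 and 517 with siADAR1 #2, and the siControl libraries were above all others. The log2FC was -1.29 with siADAR1 #1 (adjusted p = 0.0123, limma) and -1.59 with siADAR1 #2 (adjusted p = 0.0027). BOK, another gene of the effector type, had 2269 and 2108, 1097 and 1564, and 2972 and 3032 normalized counts in the same order. It fell with siADAR1 #1 (log2FC -0.74, adjusted p = 0.0257), was at 0.46 with siADAR1 #2 (adjusted p = 0.0877), and was higher with siADAR1 #2 than with siADAR1 #1 by 1.19 (adjusted p = 0.0018). Like BAK1, BOK was under siControl in both siADAR1 #1 libraries and above it in both siADAR1 #2 libraries.

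The other calls against siControl were BCL2L15 (log2FC 1.29, adjusted p = 0.015, limma) and the mitophagy receptor BNIP3 (0.56, adjusted p = 0.0197) with siADAR1 #1, and BCL2L12 (-0.55, adjusted p = 0.0345) with siADAR1 #2. Between the siRNAs, BCL2L15 was lower with siADAR1 #2 (-1.15, adjusted p = 0.0104) and BCL2L2, which encodes the anti-apoptotic protein BCL-W, was higher (0.69, adjusted p = 0.0398). With siADAR1 #1, the calls of BAD, BOK, BCL2L15 and BNIP3 were each lost without either siControl library or without siADAR1 #1 replicate 1, and those of BCL2L15 and BNIP3 also without siADAR1 #1 replicate 2. The highest adjusted p over all alternatives was 0.0963 for BAD, 0.145 for BOK, 0.0908 for BCL2L15 and 0.0958 for BNIP3. The call of BCL2L12 was lost when any of the 4 libraries compared was left out (adjusted p up to 0.182 over the 18 alternatives, as are the highest values that follow). Between the siRNAs, that of BCL2L2 was lost without any library except siADAR1 #1 replicate 2 (up to 0.172) and that of BCL2L15 without siADAR1 #1 replicate 2 or siADAR1 #2 replicate 1 (up to 0.0651). The other tested genes of the family, the anti-apoptotic BCL2L10, the BH3-only gene BMF, BCL2L13, BCL2L14 and the mitophagy receptor BNIP3L, were called in none of the comparisons, with log2FC values against siControl from -0.52 (BCL2L10 with siADAR1 #2, adjusted p = 0.192) to 0.64 (BMF with siADAR1 #2, adjusted p = 0.412).

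**Figure D4:**
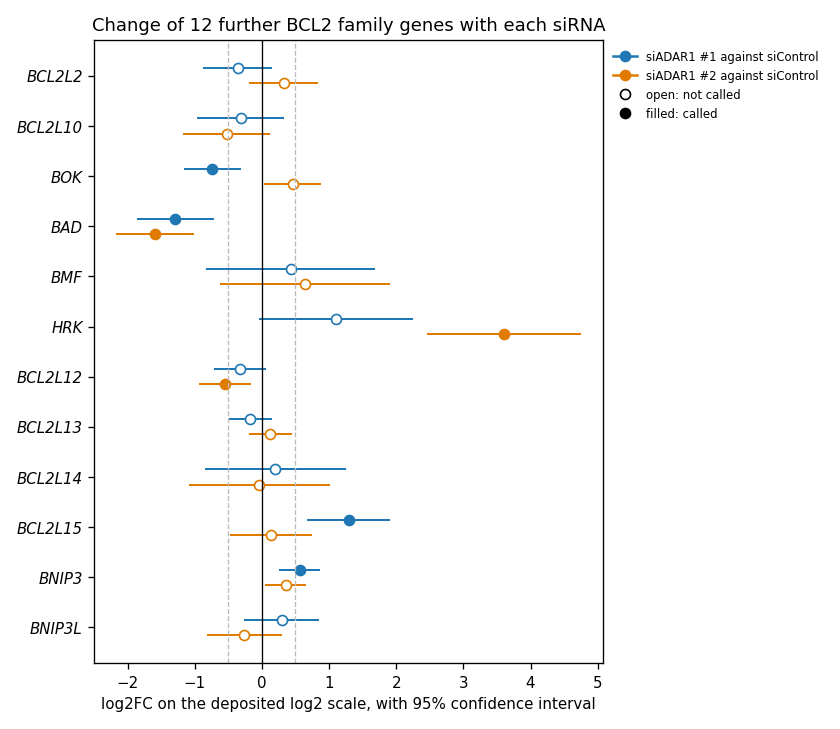
Log2FC of 12 further BCL2 family genes against siControl with siADAR1 #1 and siADAR1 #2, with 95% confidence intervals and filled points for called genes. HRK with siADAR1 #2 lies farthest from 0, at 3.60, and BAD is called lower with both siRNAs.

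Downstream of the family, cytochrome c, APAF1 and caspase-9 form the apoptosome, which activates the effector caspases. Of 8 genes of this step, 2 rose and 1 fell with siADAR1 #1, and 1 rose and 4 fell with siADAR1 #2 (medians 0.12 and -0.31). Counts in this list and in those that follow stand beside 17.4% of all genes called with siADAR1 #1 and 27.5% with siADAR1 #2. CASP9 rose with siADAR1 #2 (log2FC 1.06, adjusted p = 0.0116, limma) and was at -0.01 with siADAR1 #1. DFFA, the inhibitor of the caspase-activated DNase, fell with siADAR1 #2 (-0.94, adjusted p = 0.0027) and was at 0.26 with siADAR1 #1 (adjusted p = 0.251). The rise of CASP9 was not called without siControl replicate 2 or siADAR1 #2 replicate 1 (adjusted p up to 0.0667).

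Of 9 inhibitors of apoptosis and their antagonists, 8 were tested, and 2 rose with siADAR1 #1 while 3 rose and 1 fell with siADAR1 #2 (medians 0.03 and 0.06). XIAP, the direct caspase inhibitor, rose with siADAR1 #1 (0.67, adjusted p = 0.0077, limma) and was at 0.04 with siADAR1 #2. BIRC6 rose with siADAR1 #2 (0.68, adjusted p = 0.0032), and BIRC5, which encodes the mitotic protein survivin, fell (-0.98, adjusted p = 0.0076). The call of XIAP was lost without siControl replicate 1 (adjusted p up to 0.0628) and that of BIRC5 without either siControl library or siADAR1 #2 replicate 1 (up to 0.0587). The number called with siADAR1 #1 was 4 with the replicate block, where the number of all genes called rose from 3518 to 4094.

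In the death receptor branch that leads to BID, 2 of 7 genes rose and 1 fell with siADAR1 #1, and 1 fell with siADAR1 #2 (medians -0.08 and 0.05). The TRAIL receptor TNFRSF10A (0.87, adjusted p = 0.007, limma) and the caspase-8 regulator CFLAR (0.59, adjusted p = 0.0254) rose with siADAR1 #1. CASP8, which cleaves BID, fell with siADAR1 #2 (-0.56, adjusted p = 0.0236) and was at -0.42 with siADAR1 #1 (adjusted p = 0.0865). The call of TNFRSF10A was lost without either siControl library (adjusted p up to 0.0584) and that of CFLAR without any of the 4 libraries compared (up to 0.132). That of CASP8 was lost without siControl replicate 1 or siADAR1 #2 replicate 1 (up to 0.142) and with quantile-normalized libraries.

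Of 6 mitochondrial partners, 1 fell with siADAR1 #1 and 2 with siADAR1 #2 (medians -0.13 and -0.36). ENDOG, a mitochondrial nuclease, fell with both (-1.0, adjusted p = 0.0105, limma, and -1.30, adjusted p = 0.0018), and the channel gene VDAC3 fell with siADAR1 #2 (-0.97, adjusted p = 0.0009). MTCH2, a mitochondrial receptor for truncated BID, was at -0.46 (adjusted p = 0.0263) and -0.40 (adjusted p = 0.0277), under the fold threshold in both comparisons. The call of ENDOG with siADAR1 #1 was lost without siControl replicate 1 or siADAR1 #1 replicate 1 (adjusted p up to 0.0839).

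Of 5 ubiquitin ligases and deubiquitinases that act on family proteins, 1 fell with siADAR1 #1 and 1 rose with siADAR1 #2 (medians -0.10 and 0.19). HUWE1, a ligase for MCL1, fell with siADAR1 #1 (-0.57, adjusted p = 0.0106, limma) and was at -0.07 with siADAR1 #2. FBXW7, another ligase that targets MCL1, rose with siADAR1 #2 (0.63, adjusted p = 0.013), and BTRC was at -0.01 with siADAR1 #1 and -0.51 with siADAR1 #2 (adjusted p = 0.105), with neither called. The call of HUWE1 was lost without siControl replicate 1 or siADAR1 #1 replicate 1 (adjusted p up to 0.0731) and with median-centred or quantile-normalized libraries, and that of FBXW7 without siControl replicate 2 or siADAR1 #2 replicate 1 (up to 0.0845).

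Of 9 transcription factors known to act on family genes, 8 were tested, and 3 rose and 3 fell with siADAR1 #1 while 1 rose and 2 fell with siADAR1 #2 (medians -0.06 and -0.09). DDIT3, which encodes the stress factor CHOP, had normalized counts of 741 and 659.9 in siControl, 1206 and 1457 with siADAR1 #1 and 1941 and 2287 with siADAR1 #2. It rose with both, at 0.92 (adjusted p = 0.0098, limma) and 1.59 (adjusted p = 0.0007). FOXO1, a regulator of BCL2L11, was at 0.08 with siADAR1 #1 and fell with siADAR1 #2 (-1.07, adjusted p = 0.003). The call of DDIT3 with siADAR1 #1 was lost without either siControl library (adjusted p up to 0.0682).

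The genes whose pattern was closest to a member were ranked by the Euclidean distance between log2 values, centred per gene, over the 6 libraries. For BBC3 the closest were DDIT3 (distance 0.24) and ODF2-AS1 (0.27). For BID they were GEMIN5 (0.10), FN3KRP (0.12) and TIMM50 (0.12). For BIK they were ANKRD37 (0.40), the gene ENSG00000264057 (0.44) and PDE4D (0.44). These distances describe 6 libraries that share their transfections, and they carry no test.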

How the data were processed

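Cal62 cells transfected with siControl, siADAR1 #1 or siADAR1 #2 were measured by poly(A)+ RNA sequencing with 75-bp paired-end reads, with 2 libraries of each, which the study's methods describe as independent replicates. The authors trimmed reads with Atropos, aligned and counted them in the bcbio-nextgen pipeline with featureCounts and Salmon on GRCh38 and normalized with DESeq2. Their versions are not given in the sources used here. The deposited values are log2 values from a variance-stabilizing transformation of normalized gene counts, with a lowest value of 0.347735697 for a count of 0. Undoing the transformation gave whole reads for 100% of the values (tolerance 0.1). The column names siC, siA1 and siA2 were read as abbreviations of the sample titles. Depth was 30114840 to 50029763 reads per library, and the limit set by a count of 0 (3 reads, counting error only) was worth 2.81 to 4.39 normalized counts. Symbols from GENCODE release 44 were found for 57830 genes and not for 503.

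Genes with a mean of at least 10 normalized counts (20247) were fitted with limma 3.58.1 in R 4.3.3 (lmFit, eBayes with trend) on the log2 values, with 3 groups, or with the 4 siADAR1 libraries as 1 group, two-sided, with Benjamini-Hochberg adjustment over all genes tested. With 2 libraries per group, p-values measure the spread between these libraries. Folds were taken from means on the deposited log2 scale, which compresses differences at few reads. They are not ratios of mean counts and can lie above or below those ratios. The procedure was tested on simulated data with 200 changed genes. The named genes were all 10 members, ADAR, every tested gene of the other family list, and from each wider list the 3 genes with the smallest adjusted p against siControl with either siRNA. Likeness was measured for the 3 members with the widest range of group means. Some genes that these rules name are not reported here. The members and lists were chosen with earlier results of these data known. Alternatives covered filters, scaling, the log scale, voom on the recovered reads, eBayes settings, the fit, a replicate block and leaving out each library.

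Replicate numbers come from the column names. Deviations of same-numbered libraries correlated across 20247 genes at r = 0.11 (siControl and siADAR1 #1), 0.13 (siControl and siADAR1 #2) and 0.15 (siADAR1 #1 and siADAR1 #2), so the value with the replicate block is given where it changes a call.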

Additional observations from a re-analysis of the deposited data

Results flagged for a closer look

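For 6 members the difference between the siRNAs itself passed the test (siADAR1 #2 minus siADAR1 #1, limma, log2 scale), although both target ADAR. BAK1 (1.06), BBC3 (0.80) and BCL2 (0.55) were higher with siADAR1 #2, and BCL2L11 (-0.97), BID (-0.93) and MCL1 (-0.60) were lower. BAK1 and BCL2L11 lay on opposite sides of siControl with the siRNAs, with every library of one siRNA above both siControl libraries and every library of the other below them, while the other 4 lay on the same side in all siADAR1 libraries. Among all genes tested, 33.7% differed between the siRNAs by the same test. All 4 siADAR1 libraries were above both siControl libraries for 12.0% of all genes and below both for 17.0%. The share of all genes with the siRNAs on opposite sides of siControl was not counted.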

How the results depend on the processing

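The number of members called with siADAR1 #1 was 5, 3 with eBayes without trend (BIK and PMAIP1 lost), and 1 to 5 over the fits that left out 1 library. Leaving out siControl replicate 2 gave 1, siControl replicate 1 gave 2 and siADAR1 #1 replicate 1 gave 3. The number of all genes called fell in the same fits, from 3518 to 1478 with eBayes without trend and to 1165, 312 and 1291 without these libraries in the same order. Some fits without 1 library called fewer members with siADAR1 #2 or between the siRNAs, and those fits also called fewer of all genes. With all libraries, 5573 of all genes were called with siADAR1 #2 and 6830 between the siRNAs. The number of members called was then 4 with siADAR1 #2 and 6 between the siRNAs. With both siRNAs as 1 group it was 0, and 0 to 0 when a library was left out, whereas averaging both siRNA effects in the 3-group fit called 6 (BCL2, MCL1, BBC3, PMAIP1, BID and BIK) and 3601 of all genes. In the fit with 2 groups, voom on recovered reads called 1 gene and eBayes without trend 4. A fit without 1 library assumes that the lone library of its group varies like the others. The members called also changed where their number did not. Without siADAR1 #1 replicate 2, BAK1 (log2FC -0.64) and BCL2L11 (0.71) were called with siADAR1 #1, and BBC3 and PMAIP1 were not. The replicate block gave 6 members with siADAR1 #1 (BCL2L11 added, adjusted p = 0.0276), 4 with siADAR1 #2 and 7 between the siRNAs (BIK added, adjusted p = 0.0298), and changed no other call of a member. The number of all genes called rose with the block as well. It went from 3518 to 4094 with siADAR1 #1, from 5573 to 6065 with siADAR1 #2 and from 6830 to 7256 between the siRNAs.

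The values that changed sign were not called in any of these fits. BAX with siADAR1 #1 was at 0.054 with median-centred and 0.0068 with quantile-normalized libraries, where the median of all genes moved from -0.03 to 0.11 and 0.03. Without siControl replicate 2, BCL2L1 with siADAR1 #1 was at -0.041 (highest 0.12, over the libraries left out). Between the siRNAs, PMAIP1 was at -0.037 (highest 0.28) and ADAR at -0.025 without siADAR1 #1 replicate 1, and ADAR at -0.054 (highest 0.76) without siADAR1 #2 replicate 2. With both siRNAs as 1 group, BCL2L11 was at -0.050, -0.18 and -0.060 (highest 0.23) without siControl replicate 2, siADAR1 #1 replicate 1 and siADAR1 #1 replicate 2, and BAK1 at -0.069 and -0.027 (highest 0.38) without siADAR1 #2 replicate 1 and replicate 2. The causes were not tested. The filter on the mean log2 value was chosen after seeing the data. Genes with few reads, such as BIK and HRK, have the least precise values.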
